A study of Drosophila melanogaster with 18 samples.

Results

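The mRNAs described here encode subunits of HOPS and of the ESCRT machinery, which act in turn on the route from endosomes to lysosomes, in *Drosophila* S2 cells before and after heat shock (HS). A total of 10 genes were named by symbol. They are *Vps39*, *dor*, *car*, *lt*, *Vps11* and *Vps16A* for HOPS, and *Vps28*, *TSG101*, *Vps25* and *Vps4* for ESCRT. Of these, 8 were matched by FlyBase identifier among the 15602 genes of the expression table, 5 of 6 for HOPS and 3 of 4 for ESCRT, and all 8 passed the minimum of a mean of 1 FPKM that 7815 genes passed. The current identifiers of *Vps16A* and *Vps4* found no row, and both genes are not analysed here. The genes were selected on results of the same comparison, their FPKM in NHS against HS libraries: the lower values of *Vps39* and *Vps28* after HS were already known, and the rest were added as subunits of the same machineries. The values of the 8 genes are therefore given as a description, with no test.

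Both conditions used S2 cells, a line of embryonic origin with traits of blood cells, that received no double-stranded RNA. Non-HS (NHS) cells were collected before HS. HS cells were collected after 30 min at 37°C, started by adding an equal volume of serum-free medium at 48°C. The sources used here do not say whether NHS cultures also received medium, so heat and the change of medium cannot be told apart. Poly(A)+ RNA of 2 biological replicates per condition was sequenced as directional libraries. The level of an mRNA is given as FPKM, fragments per kilobase of transcript, scaled to the number of mapped fragments, which allows levels of different genes to be compared. Because FPKM are scaled values, in a mode that the sources used here do not give, they do not show a change common to all mRNAs. They summed to 831628 and 837852 in NHS libraries and to 923996 and 926922 in HS libraries. In bulk RNA fewer cells with an mRNA and less of it per cell cannot be told apart.

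The libraries followed their labels. *Hsp68*, an inducible Hsp70-family gene, stood at 22.1 and 20.3 FPKM in NHS libraries and at 10271 and 9667 FPKM in HS libraries. Of 11 haemocyte markers, 9 had a mean of at least 1 FPKM, with summed levels of 298 and 391 FPKM in NHS and 305 and 376 FPKM in HS libraries, while *NimC1*, a phagocytosis receptor gene, was listed at 0 in 3 of the 4 libraries. Of 8 neuron, muscle and germline markers found in the table, 2 had a mean of at least 1 FPKM, *elav* and *osk*, and the summed level of the list was 10.5 to 11.1 FPKM in NHS and 12.6 to 14.6 FPKM in HS libraries. Their part in the results was not tested. Low values gave depths of 77.0%, 60.7% and 68.7% of NHS replicate 1 for NHS replicate 2, HS replicate 1 and HS replicate 2. The number of reads behind a value cannot be given from FPKM.

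HOPS is a tether that holds late endosomes, autophagosomes and lysosomes together before their membranes fuse. Its core, known as class C, consists of Vps11, Vps16, Vps18 and Vps33. At least a part of this core is shared with CORVET, a tether of early endosomes. Vps39 and Vps41 at the ends of the complex bind small GTPases of the Rab family. In the fly *dor* encodes Vps18, *car* encodes Vps33A and *lt* encodes Vps41. The names deep orange, carnation and light come from the eye colours of mutants, because pigment granules of the fly eye are made by the same route as lysosomes. ESCRT complexes act a step earlier: they collect ubiquitinated membrane proteins on endosomes, bend the membrane away from the cytosol and cut off vesicles, and they also act at the end of cell division and in membrane repair.

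*Vps39*, the HOPS subunit that binds Rab GTPases at an end of the complex, had the lowest value after HS relative to NHS among the 8 genes. Its level was 23.8 and 21.1 FPKM in NHS libraries against 12.9 and 11.5 FPKM in HS libraries. Both HS libraries lay below both NHS libraries. The HS mean was 54.4% of the NHS mean (12.2 ± 0.991 against 22.4 ± 1.93 FPKM, SD, n = 2 each). The log2 fold change, on the log2(FPKM + 1) scale used for all fold changes here, was -0.83 with a standard error (SE) of 0.12, and 3.51% of all tested genes had a lower one. It was -0.83 between the libraries numbered 1 and -0.82 between those numbered 2, and it ran from -0.99 to -0.67 over the 4 pairs of an HS and an NHS library.

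The other HOPS genes measured did not share this pattern. *lt*, whose product sits at the opposite end of the complex from Vps39, stood at 54.3 and 62.6 FPKM in NHS and at 51.3 and 61.6 FPKM in HS libraries. The HS values lay within or just under the NHS values, and the replicates of a condition differed by more than the conditions did (log2 fold change -0.05, SE 0.14). *dor*, a class C core gene, stood at 10.66 and 9.26 FPKM in NHS and at 10.65 and 10.05 FPKM in HS libraries. The groups overlapped, with a log2 fold change of 0.05 (SE 0.12). *car*, the gene of the core subunit that binds SNARE proteins, the proteins that fuse membranes, stood at 9.58 and 9.03 FPKM in NHS and at 9.49 and 8.55 FPKM in HS libraries. These groups overlapped as well (log2 fold change -0.04, SE 0.12). *Vps11*, a core subunit gene, stood at 22.7 and 18.8 FPKM in NHS and at 18.9 and 17.0 FPKM in HS libraries. HS replicate 1 was above NHS replicate 2, and the log2 fold change was -0.19 with a standard error of 0.14.

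**Figure D1:**
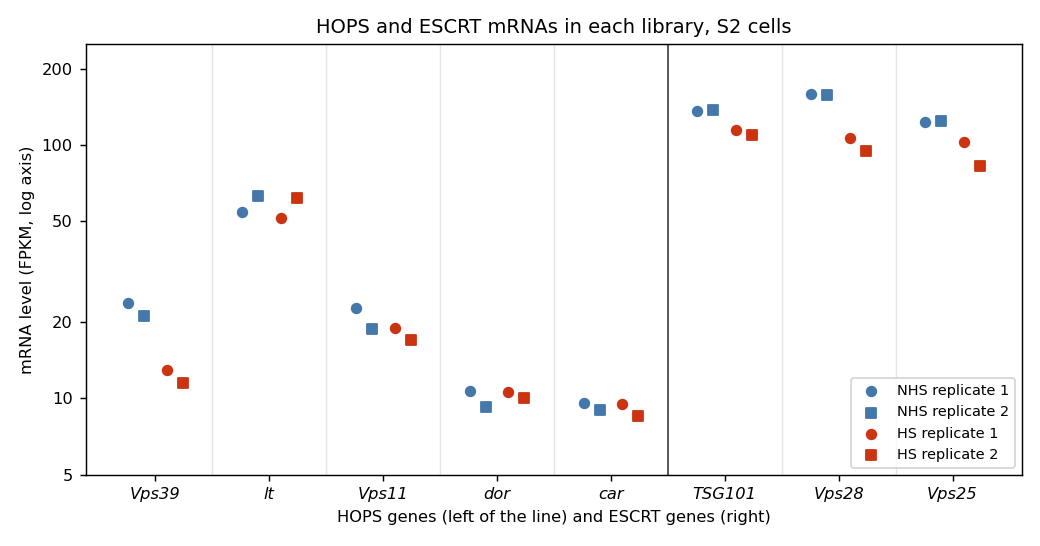
mRNA level (FPKM, log axis) of 5 HOPS genes and 3 ESCRT genes in each library, with NHS in blue, HS in red, circles for replicate 1 and squares for replicate 2. *Vps39* dropped out of the range of its NHS libraries (23.8 and 21.1 FPKM) to 12.9 and 11.5 FPKM, the other 4 HOPS genes overlapped between conditions, and the 3 ESCRT genes were lower in both HS libraries.

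The ESCRT genes were more abundant than the HOPS genes and lay lower after HS in each case. *Vps28*, which encodes an ESCRT-I subunit that links this complex to ESCRT-II, stood at 158 and 157 FPKM in NHS and at 107 and 94.3 FPKM in HS libraries. The conditions were far apart next to the replicate difference, with an HS mean of 63.8% of the NHS mean (log2 fold change -0.65, SE 0.10). *Vps25*, the gene of the ESCRT-II subunit that recruits ESCRT-III, stood at 123 and 124 FPKM in NHS and at 102 and 82.8 FPKM in HS libraries. The HS replicates differed from each other about as much as the nearer of them differed from NHS, and the log2 fold change was -0.42 (SE 0.13). *TSG101*, which encodes the ESCRT-I subunit that binds ubiquitin, stood at 136 and 137 FPKM in NHS and at 114 and 109 FPKM in HS libraries. The drop was smaller but lay outside the replicate range (log2 fold change -0.29, SE 0.09). Of all tested genes, 4.90%, 8.83% and 15.3% had a lower log2 fold change than *Vps28*, *Vps25* and *TSG101*. Both HS libraries lay below both NHS libraries for 4 of the 8 genes, *Vps39* and the 3 ESCRT genes. The same held for 25.6% of all tested genes, the groups were apart in either direction for 46.1%, and the log2 fold change was under 0 for 53.4%. Nothing is read from the count of 4, since the comparison was known when the genes were chosen.

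The median log2 fold change was -0.05 over the 5 HOPS genes and -0.42 over the 3 ESCRT genes, beside -0.02 over all 7815 tested genes (quartiles -0.17 and 0.13). In 9 other fits, with other pseudocounts, other library scalings or 1 library left out, *Vps39* ranged from -1.02 to -0.67 and *Vps28* from -0.85 to -0.54. *TSG101*, *Vps25* and *Vps11* were also below 0 in all 9. For *Vps39* and the 3 ESCRT genes, whose groups were apart, only quantile normalization could have changed the sign. *Vps11*, whose groups overlapped, came as near to 0 as -0.06, without NHS replicate 1. Rescaling to the same FPKM total or to ribosomal protein mRNAs moved the median of all genes by -0.14 and -0.20. *dor* was below 0 in 3 of the 9 fits, both rescalings among them, *lt* in 6 and *car* in 8. No direction is given for these or for *Vps11*.

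In the NHS condition the order of levels was *Vps28*, *TSG101*, *Vps25*, *lt*, *Vps39*, *Vps11*, *dor* and *car*, from 157 down to 9.31 FPKM. The replicate ranges of *Vps39* and *Vps11* overlapped, as did those of *dor* and *car*, and the other neighbours were apart. After HS, *TSG101* (112 ± 3.47 FPKM, SD, n = 2) stood above *Vps28* (100.4 ± 8.72), whose range overlapped that of *Vps25* (92.5 ± 13.7). *Vps11* (18.0 ± 1.37 FPKM) stood above *Vps39* (12.2 ± 0.991), with ranges apart. *lt* thus exceeded each of the other HOPS mRNAs in both conditions, and *Vps39* moved from the level of *Vps11* toward that of *dor* (10.3 ± 0.428 FPKM after HS).

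Ratios between mRNAs of the same library do not change when a library is multiplied by a single factor, though quantile normalization can change them. For each *dor* mRNA unit there were 2.23 and 2.28 of *Vps39*, as a ratio of FPKM, in NHS libraries and 1.21 and 1.14 in HS libraries. The ratio of *Vps39* to *Vps11* was 1.05 and 1.12 in NHS and 0.681 and 0.677 in HS libraries. Against *lt*, it was 0.439 and 0.337 in NHS and 0.252 and 0.187 in HS libraries. Each ratio of *Vps39* to another HOPS mRNA was lower in both HS libraries than in both NHS libraries, that to *car* included (2.48 and 2.33 in NHS, 1.36 and 1.35 in HS). The lower values of *Vps39* and *Vps28* in these libraries were known when both were chosen. Their lower ratios restate that drop and are no separate support for it. The ratio of *lt* to *Vps11* overlapped between conditions, and that of *dor* to *car*, 1.11 and 1.03 in NHS, was 1.12 and 1.17 in HS, slightly higher in both HS libraries than in both NHS libraries. Within ESCRT-I, the ratio of *Vps28* to *TSG101* was 1.16 and 1.14 in NHS and 0.933 and 0.862 in HS libraries. The ratio of *Vps25* to *TSG101* was 0.907 and 0.904 in NHS and 0.894 and 0.757 in HS libraries, so that HS replicate 1 lay close to both NHS libraries.

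**Figure D2:**
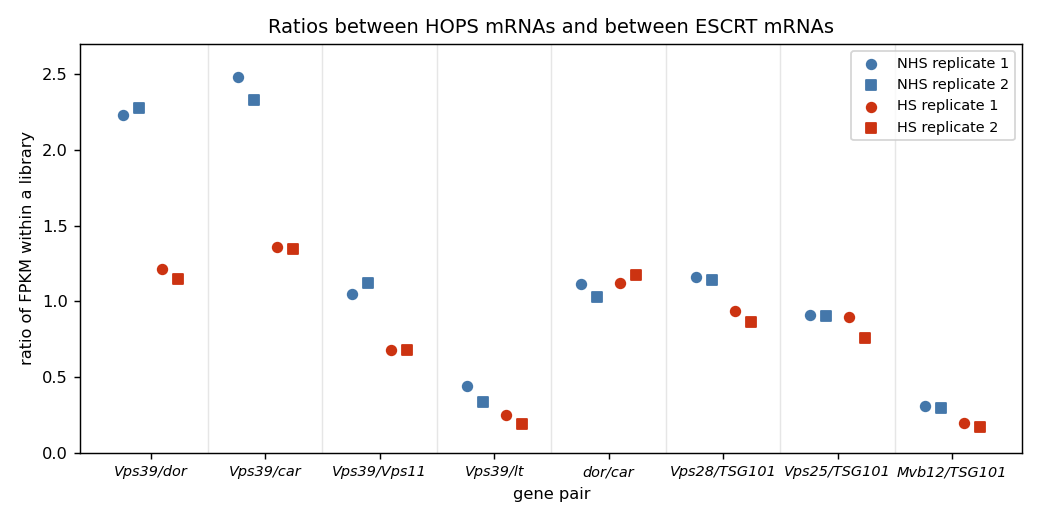
Ratio of FPKM between gene pairs within each library (linear axis from 0), with NHS in blue, HS in red, circles for replicate 1 and squares for replicate 2. *Vps39*/*dor* was 2.23 and 2.28 in NHS and 1.21 and 1.14 in HS libraries, while *dor*/*car* was 1.11 and 1.03 in NHS and slightly higher, 1.12 and 1.17, in HS libraries.

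The 8 genes differ in structure and position. By Ensembl gene models on BDGP6, an assembly that is not the dm3 build the reads were aligned to, they lie on chromosome arms 3R (*Vps39*), X (*dor* and *car*), 2L (*lt*), 3L (*Vps11* and *TSG101*) and 2R (*Vps28* and *Vps25*). The longest annotated transcripts of the HOPS genes measure 2844 to 5316 nt and those of the ESCRT genes 678 to 1757 nt, around a median of 1893 nt over the tested genes. *Vps39* (2915 nt, 7 exons) and *dor* (3161 nt, 5 exons) are alike in length, and *Vps11* and *Vps28* each have 1 exon in that transcript. No member overlaps another gene on its own strand in the annotation. On the opposite strand, *dor* overlaps *Mur2B* by 3400 nt (0.511 to 1.43 FPKM) and *CG3740* by 46 nt, *Vps11* overlaps an antisense RNA gene by 970 nt, and *TSG101* overlaps *kud* by 18 nt. Reads were aligned as strand-specific.

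The other genes of the ESCRT machinery gave the clearest pattern. A list of 19 further ESCRT genes was fixed by name, with earlier results of these data known, and 18 were measured. The values come from the same 4 libraries in which *Vps28* was known to be lower. The 18 genes share these libraries and are not independent of each other, so the counts are a description. Every one of the 18 had a lower level in both HS libraries than in both NHS libraries, against 25.6% of all tested genes. Their median log2 fold change was -0.56 and their range -0.99 to -0.19, beside a median of -0.02 over all tested genes. In limma, with p adjusted by Benjamini-Hochberg over the 7815 tested genes, 3 of the 18 fell at an adjusted p under 0.05, none rose and 15 did not pass. Of all tested genes 1.56% fell and 1.75% rose by that rule, 3.31% in all. At an unadjusted p under 0.05, 13 of the 18 were lower, against 10.5% of all tested genes. The 3 calls depended on having all 4 libraries. With the replicate number as a block, 12 of the 18 were called lower. Over all 7815 tested genes, that block raised the lower calls from 122 to 582, so the rise was not particular to ESCRT genes.

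*Mvb12*, which encodes a subunit of ESCRT-I like Vps28 and TSG101, fell the most. It stood at 42.2 and 41.0 FPKM in NHS and at 22.2 and 18.7 FPKM in HS libraries, an HS mean of 49.2% of the NHS mean (log2 fold change -0.99, SE 0.12, limma adjusted p = 0.036). *shrb*, the fly gene for Vps32, which forms the main filament of ESCRT-III, fell from 246 and 265 FPKM in NHS to 140 and 155 FPKM in HS libraries. Its HS mean was 57.7% of the NHS mean (log2 fold change -0.79, SE 0.10, limma adjusted p = 0.040). *Vps24*, the gene of an ESCRT-III subunit that works with Vps2 to remodel that filament, fell from 81.3 and 80.9 FPKM to 49.9 and 53.3 FPKM (log2 fold change -0.64, SE 0.09, limma adjusted p = 0.0495). The ratio of *Mvb12* to *TSG101* within a library was 0.311 and 0.298 in NHS and 0.194 and 0.171 in HS libraries. This pair sets the largest fall of the list against the smallest among the chosen ESCRT genes, so a lower ratio follows from it. *Vps60*, an ESCRT-III gene and among the most abundant of the list, stood at 234 and 240 FPKM in NHS and at 209 and 177 FPKM in HS libraries (log2 fold change -0.30, SE 0.12, limma adjusted p = 0.30).

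The lower values were spread over every ESCRT complex. Log2 fold changes were -0.58 for *Stam* and -0.53 for *Hrs*, the ESCRT-0 genes whose products first bind ubiquitinated cargo. The further ESCRT-I gene *Vps37B* had -0.40, and the ESCRT-II genes *Vps36* and *lsn*, the fly Vps22, had -0.59 and -0.29. The 8 ESCRT-III genes of the list had a median of -0.57 and ranged from -0.79 for *shrb* to -0.22 for *Vps20*, the subunit that starts the filament. *CHMP2B*, *Ist1*, *Vps2* and *Chmp1* lay between, from -0.71 to -0.56. Among associated genes, *Vta1*, whose product activates the Vps4 ATPase that takes ESCRT-III apart, had -0.65 and *ALiX*, an adaptor that recruits ESCRT-III by another path, had -0.53. *mop*, a gene for an ALiX-related protein, had -0.37 and *Usp8*, a deubiquitinase gene, had -0.19. Apart from the 3 genes named above, none of these passed an adjusted p of 0.05. Because both HS libraries lay below both NHS libraries for all 18, another pseudocount or leaving out 1 library cannot reverse a sign. Nor could rescaling to the same FPKM total or to ribosomal protein mRNAs, which lowered the fold changes. Quantile normalization could have done so, and all 18 were below 0 with it. Over the 9 fits with other pseudocounts or scalings or without 1 library, their median less that of all genes was -0.56 to -0.45.

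**Figure D3:**
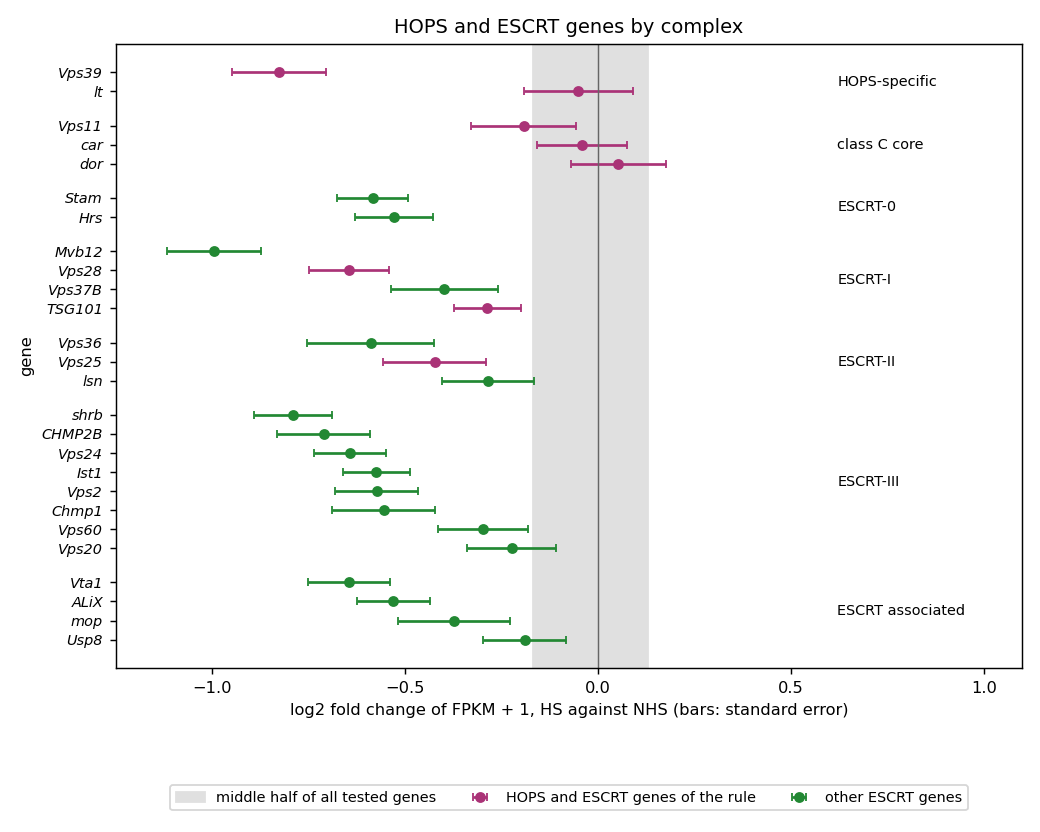
Log2 fold change of FPKM + 1 (HS against NHS) with its standard error for the 8 HOPS and ESCRT genes of the choice (purple) and 18 other ESCRT genes (green), ordered by complex; the grey band spans the quartiles of all tested genes, -0.17 to 0.13. All ESCRT genes lie left of 0, from -0.99 (*Mvb12*) to -0.19 (*Usp8*), whereas 4 of the 5 HOPS genes lie between -0.19 and 0.05.

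No gene for a protein that works with HOPS or resembles its subunits passed an adjusted p of 0.05. None of the 3 tether genes related to the class C core, *Vps8*, *Vps16B* and *Vps33B*, passed the test, also at an unadjusted p under 0.05. *Vps8*, which encodes the CORVET-specific subunit, stood at 7.97 and 8.62 FPKM in NHS and 6.77 and 7.22 FPKM in HS libraries (log2 fold change -0.22), and *Vps16B*, a gene of a separate Vps16-related complex, had a log2 fold change of 0.06. Of 15 genes for Rab and Arl GTPases, their activators, SNAREs and adaptors, 13 were measured and none passed an adjusted p of 0.05 in limma, with 4 lower and 0 higher at an unadjusted p under 0.05, beside 10.5% and 7.42% of all tested genes. For 7 of the 13 both HS libraries lay below both NHS libraries, beside 25.6% of all tested genes, and for 0 they lay above. The median was -0.18, and 10 of the 13 were fitted below 0. *Syx13*, an endosomal SNARE gene, was the lowest at 37.1 and 37.0 FPKM in NHS against 23.4 and 19.3 FPKM in HS libraries (log2 fold change -0.77, SE 0.13, limma adjusted p = 0.063). *Rab7*, the GTPase of late endosomes with which HOPS acts, stood at 228 and 265 FPKM in NHS and 165 and 210 FPKM in HS libraries (log2 fold change -0.40, SE 0.16). *Arl8*, a lysosomal GTPase gene and the most abundant of this list, had a log2 fold change of -0.31 (SE 0.09).

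Most other endosomal genes had fitted changes below 0, and none passed the adjusted threshold in the fit used here. Under some other settings, given below, 2 or 3 genes of the lists outside ESCRT were called lower. A list of 19 genes covered the endosomal phosphatidylinositol 3-kinase, the retromer, which returns receptors from endosomes, and the related GARP and EARP tethers. It also held other genes of membrane traffic, *Rbsn-5*, *Vps45*, *Vps13* and *fab1*. None of the 19 passed an adjusted p of 0.05 in limma. At an unadjusted p under 0.05, 4 were lower and 0 higher, beside 10.5% and 7.42% of all tested genes. Both HS libraries lay below both NHS libraries for 11 of the 19, beside 25.6% of all tested genes, 18 were fitted below 0, and the median was -0.17. *Rbsn-5*, which encodes a Rab5 effector of early endosomes, stood at 35.7 and 39.7 FPKM in NHS and at 23.6 and 23.7 FPKM in HS libraries (log2 fold change -0.65, SE 0.10, limma adjusted p = 0.060). *Vps15*, the regulatory subunit gene of the kinase, had -0.42 (SE 0.13), and *Snx6*, a sorting nexin gene at 226 FPKM in NHS cells, had -0.10 (SE 0.12).

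Pigment granule genes, which share the eye colour phenotypes of *dor*, *car* and *lt*, had a median log2 fold change of 0.03 over 15 measured of 17. This list holds the AP-3 adaptor subunits *g*, *rb*, *cm* and *or*, BLOC genes and their regulators. None passed an adjusted p of 0.05 in limma, with 0 lower and 1 higher at an unadjusted p under 0.05. The same threshold was passed upward by 7.42% of all tested genes. The 1 gene, *ca* or claret, a guanine nucleotide exchange factor gene for Rab proteins, stood at 18.5 and 18.9 FPKM in NHS and at 24.3 and 24.5 FPKM in HS libraries (log2 fold change 0.37, SE 0.09, limma adjusted p = 0.14). *ltd* or lightoid, the Rab32 gene, stood at 0.862 and 0.770 FPKM in NHS and 1.28 and 1.70 FPKM in HS libraries (log2 fold change 0.45, SE 0.23), and passed the minimum of 1 FPKM through its HS values. *or*, the most abundant of the list, had -0.13 (SE 0.12).

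Genes of the lysosome itself had medians close to that of all genes. V-ATPase subunits, which acidify lysosomes, had a median log2 fold change of 0.01 over 12 measured of 17, within a range of -0.15 for *Vha100-1* to 0.10, and none passed an adjusted or an unadjusted p of 0.05 in limma. *Vha16-1*, the gene of the proton-carrying ring and the most abundant of these, stood at 981 and 859 FPKM in NHS and 834 and 862 FPKM in HS libraries. Lysosomal hydrolases and membrane proteins had a median of -0.07 over 17 tested of 21, with none past an adjusted p of 0.05 and 1 lower at an unadjusted p under 0.05, beside 10.5% of all tested genes. Both HS libraries lay below both NHS libraries for 5 of the 17, beside 25.6% of all tested genes, and above for 0. The 1 lower gene, *cathD* (cathepsin D), stood at 463 and 453 FPKM in NHS and 397 and 335 FPKM in HS libraries (log2 fold change -0.33, SE 0.11, limma adjusted p = 0.25). *Npc2b*, a sterol carrier gene, had -0.24 (SE 0.10), and *Cp1* (cathepsin L), the most abundant, had -0.22 with a standard error of 0.41. With libraries rescaled to the same FPKM total or to ribosomal protein mRNAs, the median of all genes moved by -0.14 and -0.20, and that of the V-ATPase list to -0.14 and -0.19, close to all genes in each case.

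**Figure D4:**
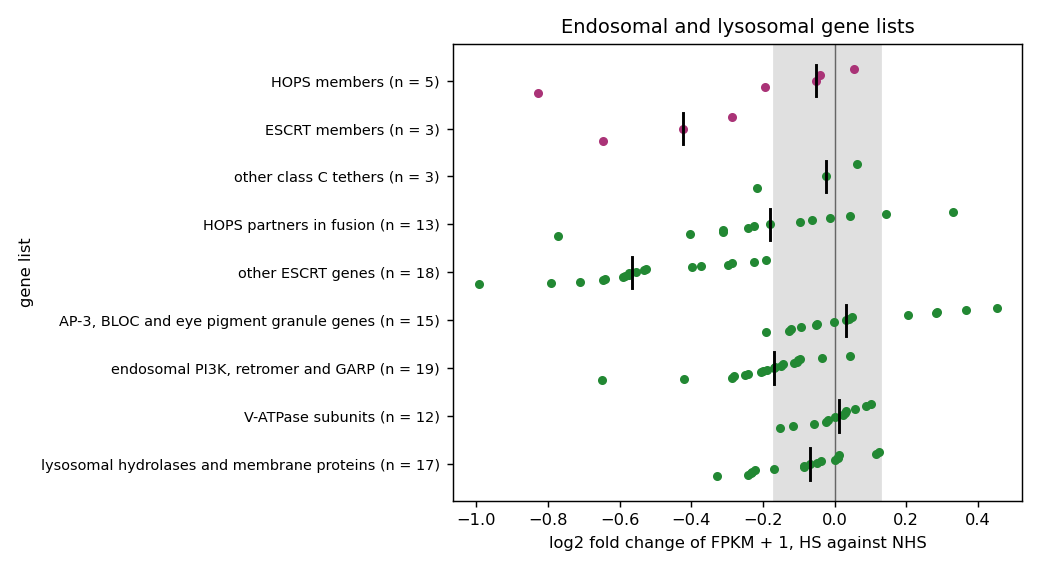
Log2 fold change of FPKM + 1 (HS against NHS) of each measured gene, by list, with a black bar at the list's median and a grey band over the quartiles of all tested genes (-0.17 to 0.13). The list of other ESCRT genes has its median at -0.56 with all 18 genes below 0, while the V-ATPase list has its median at 0.01.

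The 3 protein-coding genes outside these lists whose centred log2(FPKM + 1) values over the 4 libraries lay closest to those of *Vps39* were *Mob2*, *Cyp12a5* and *RasGAP1*, at Euclidean distances of 0.045, 0.059 and 0.064. *Mob2*, a kinase coactivator gene, stood at 96.6 and 82.8 FPKM in NHS and at 51.6 and 47.0 FPKM in HS libraries. *Cyp12a5*, a cytochrome P450 gene, stood at 15.8 and 13.2 FPKM in NHS and 8.21 and 7.17 FPKM in HS libraries. *RasGAP1*, a gene for a negative regulator of Ras, stood at 50.2 and 44.1 FPKM in NHS and 27.3 and 23.4 FPKM in HS libraries.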

How the data were processed

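RNA-seq of S2 cells comprised 4 libraries, 2 per condition, and 0 columns of the table were left unmapped. The PRO-seq samples were not analysed here. The authors clipped adapters, mapped the reads with TopHat2, set for first-strand libraries, against dm3, and deposited FPKM per gene and library from Cuffnorm. The submitters' processing notes name TopHat2, Cuffnorm and dm3, and versions and the Cuffnorm scaling mode were not given in the sources used here. Read tables behind the FPKM were not analysed here.

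Symbols came from FlyBase identifiers (14925 of 15602 matched), with synonyms from the RefSeq gene table. The 7815 genes averaging 1 FPKM or more were compared as log2(FPKM + 1) in limma 3.58.1 (R 4.3.3), condition as the only term, variances moderated along a trend, adjusted p by Benjamini-Hochberg under 0.05, wider than the FDR of 0.001 of the study's own test. At 0.001, 10 genes were higher and 0 lower. The script was first tested on simulated data. At an adjusted p under 0.05 it called 1.8% of simulated log2 changes of 0.5, 41.6% of 1 and 77.4% of 2. Most changes of about 0.5 would thus go uncalled. No sequence is shown, as no reference sequence was used here. Standard errors are from the moderated model. p-values are for the difference between conditions, set against the moderated spread between the 2 replicates of each condition.

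The genes and lists were chosen with earlier results of these data known. Named genes were the chosen 10, *Hsp26*, *Hsp68* and *Hsp83* as a check, from each list every called gene, the 2 largest changes and the most abundant gene, and the 3 genes most like *Vps39*. The ESCRT list was named gene by gene as a whole, and the AP-3 subunits, *Vps33B*, *NimC1*, *elav*, *osk*, *Mur2B*, *CG3740* and *kud* were added after values were seen. *Hsp26* stood at 67.6 and 36.6 FPKM in NHS and 12838 and 9713 FPKM in HS libraries, and *Hsp83* at 776 and 821 FPKM in NHS and 6748 and 6454 FPKM in HS libraries. Alternatives covered pseudocounts (0.5 and 5), filters (none and 5 FPKM), scaling, variance moderation, a replicate block, the threshold, and each library left out. Python 3.11.15 with pandas 2.3.3, numpy 2.4.6 and matplotlib 3.10.9 was used.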

Additional observations from a re-analysis of the deposited data

How the results depend on the processing

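Over all tested genes, 122 were lower and 137 higher after HS in limma at an adjusted p under 0.05. The lower count was 252 with libraries rescaled to the same FPKM total, 347 with ribosomal protein scaling and 190 with robust variances, and the higher count was 280 with no filter and 60 with a filter of 5 FPKM. The share of calls that were lower was 47.1%. It was 65.8% and 71.5% under these scalings, 59.7% with a filter of 5 FPKM, 29.3% with no filter, 35.1% without the variance trend, 36.7% and 52.3% without NHS replicate 1 or 2, and 23.7% and 17.6% without HS replicate 1 or 2. At 0.001 the counts were 0 and 10. Without any 1 library they were 6 to 36 lower and 28 to 62 higher. Of the other ESCRT genes, 3 were called lower, and 5 with no filter, 2 with pseudocount 5, 1 each with a filter of 5 FPKM, quantile normalization or no variance trend, 10 with the same FPKM total, 11 with ribosomal protein scaling, 7 with robust variances, 0 at 0.001, and 0 to 0 without any 1 library. Of the genes of the lists outside ESCRT, 0 were called lower, and 2 each with the same FPKM total, ribosomal protein scaling or robust variances. Filters, variance settings and the block, 5 of the 14 fits, leave fold changes as they are. In the other 9, the sign of each of the 18 other ESCRT genes did not change, though only quantile normalization could have changed it. For the chosen genes, 16 of 72 values in these 9 fits moved by more than the replicate SD.

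The replicate numbers come from column names and mark no stated litter, day or batch. The correlation of deviations between libraries of the same number was r = 0.22 over 7815 genes, which are not independent. With the replicate number as a block, 582 genes were lower (63.5% of calls) and 334 higher. Among the lower ones were 12 of the other ESCRT genes and 3 genes of the lists outside ESCRT. The causes of these differences were not tested. Depth in reads is not known from FPKM, and with 2 libraries per condition small changes were seldom called in the simulation.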

Other observations

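Several haemocyte genes differed between the replicate numbers in both conditions. *Hml*, the hemolectin gene of plasmatocytes, stood at 5.69 and 22.5 FPKM in NHS libraries and at 4.45 and 20.7 FPKM in HS libraries, in the order of replicates 1 and 2. *He*, the hemese gene, ran the other way, at 5.97 and 1.09 FPKM in NHS and at 5.36 and 1.21 FPKM in HS libraries. *Cp1*, the cathepsin L gene of the lysosomal list, stood at 3030 and 1938 FPKM in NHS and at 2944 and 1468 FPKM in HS libraries. In contrast, the ESCRT genes *Ist1* and *ALiX* varied little between replicates. *Ist1* stood at 98.1 and 97.9 FPKM in NHS and at 65.9 and 65.1 FPKM in HS libraries. *ALiX* stood at 72.2 and 72.5 FPKM in NHS and at 51.6 and 48.0 FPKM in HS libraries. These genes were chosen after their values were seen.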
